A study of Mus musculus with 23 samples.

Results

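The miR-344 family is a group of rodent microRNAs (miRNAs) made from a run of hairpins on mouse chromosome 7. The members described here are the 4 mature miRNAs miR-344-3p, miR-344b-3p, miR-344c-3p and miR-344d-3p, taken by name from 1915 miRNAs counted in every library. They are the 4 most counted of 19 miRNAs whose name starts with miR-344. The family was chosen by measured values, the region levels of wild type mice, in which miR-344d-3p stood out in the hippocampus. Wild type region levels are therefore given as a description, with no test.

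Small RNA libraries were made from dissected brain of C57BL/6 mice: 11 from mice labelled as Cdr1as knockout and 12 from mice labelled as wild type. Cdr1as is a circular RNA of neurons that binds miR-7 and miR-671. In the knockout, cerebellum, cortex and olfactory bulb had 3 libraries each and hippocampus had 2, which carry the replicate numbers 2 and 3. In wild type, all 4 regions had 3 libraries each. No age, sex or treatment is given in the labels used here, nor whether each library is a separate animal, so p-values measure only the spread between these libraries. The loss of Cdr1as itself could not be checked, since small RNA libraries do not count circular RNAs.

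A miRNA is cut from one arm of a hairpin, the 5′ arm (5p) or the 3′ arm (3p), and loaded into an Argonaute protein. It finds its target messenger RNAs mainly through its seed, the bases at positions 2 to 8, so miRNAs that share a seed share many predicted targets. Imprinted genes are expressed mainly from the chromosome of one parent, and the interval that holds the miR-344 hairpins lies in the region that corresponds to the human Prader-Willi syndrome region. The reads here carry no allele information, so imprinting itself was not measured.

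The mature sequences show how the members are related, and are printed 5′ to 3′ from RefSeq (GRCm38.p6, chromosome 7, minus strand) with the seed in capitals. All 19 miR-344 names matched a RefSeq sequence.
miR-344-3p: uGAUCUAGccaaagccugacugu
miR-344c-3p: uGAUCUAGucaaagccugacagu
miR-344b-3p: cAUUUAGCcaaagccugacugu
miR-344d-3p: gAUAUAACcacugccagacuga
The first and second of these share the seed GAUCUAG and 21 of 23 positions. Counted from the 5′ end, with the base of miR-344-3p first, they differ by C9U and U21A. Among the 1623 miRNAs of the files with a RefSeq sequence, no other carries this seed. The seed of miR-344b-3p, AUUUAGC, was found in no other of these miRNAs. The seed of miR-344d-3p, AUAUAAC, is shared with 2 others, shown here because the levels of these 3 miRNAs are compared further on.
miR-344e-3p: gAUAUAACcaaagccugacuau
miR-410-3p: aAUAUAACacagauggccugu
The hairpin miR-344e-3p comes from is a neighbour in the same run, and with the base of miR-344d-3p first the mature sequences differ by C11A, U12A, A16U, G21A and A22U. In contrast, miR-410-3p belongs to another imprinted domain, the Dlk1-Dio3 region of chromosome 12.

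In the GENCODE M21 annotation of GRCm38, 13 Mir344 hairpin genes follow each other on the minus strand of chromosome 7 with 0 protein-coding genes among them. In chromosome order they are Mir344d-1, Mir344d-2, Mir344d-3, Mir344e, Mir344h-1, Mir344h-2, Mir344b, Mir344c, Mir344, Mir344-2, Mir344g, Mir344f and Mir344i. The nearest protein-coding gene on the Mir344d side is Snurf, and on the Mir344i side the next are Ndn, Magel2, Mkrn3 and Peg12, which are imprinted genes of the Prader-Willi region. Of the hairpins, 7 lie within the long non-coding RNA gene A230057D06Rik on the same strand, among them Mir344d-3, Mir344b, Mir344c and Mir344, and Mir344-2 lies within the non-coding gene A330076H08Rik. The files were mapped to another build, mm9, so no coordinates are given. The hairpins of the d and c members show where in the precursor each miRNA sits, with the 3p miRNA in capitals.
Mir344d-3: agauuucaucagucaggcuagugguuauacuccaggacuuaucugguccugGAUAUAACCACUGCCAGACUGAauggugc
Mir344c: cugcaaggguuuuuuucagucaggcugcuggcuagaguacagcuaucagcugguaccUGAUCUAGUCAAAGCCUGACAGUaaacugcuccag
The number of hairpins differs between members: RefSeq gives 3 for miR-344d-3p (Mir344d-1, Mir344d-2 and Mir344d-3), 2 for miR-344-3p (Mir344 and Mir344-2), and 1 each for miR-344b-3p and miR-344c-3p.

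The counts of miR-344-3p were even in 23 of 23 libraries, and those of miR-344d-3p were multiples of 3 in 16 of 23. Among miRNAs with at least 230 counts in all, 7 of 30 with 2 hairpins were even in every library, against 0 of 469 with 1 hairpin. Of 3 such miRNAs with 3 hairpins, 0 were multiples of 3 in every library. Their median was 8 of 23 libraries, the same as for miRNAs with 1 hairpin. A factor of 3 for miR-344d-3p is thus less clear than a factor of 2 for miR-344-3p. Levels of different members are therefore set side by side both as deposited and divided by the number of hairpins. The capture of a small RNA in library preparation also depends on its sequence, so levels of different miRNAs are approximate, while a comparison of the same miRNA between groups is not touched by a constant factor.

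Library totals ran from 2328929 to 13070794 counts, with 741 to 1094 miRNAs detected. Over all 23 libraries miR-344d-3p had 90989 counts, miR-344-3p had 67912, miR-344b-3p had 14279 and miR-344c-3p had 2005. The 4 members together took 0.179% to 0.190% of the counts in knockout hippocampus and 0.157% to 0.173% in wild type hippocampus, as deposited. Cortex was near this, with 0.142% to 0.158% in knockout and 0.140% to 0.153% in wild type. The share was lower in cerebellum, with 0.0465% to 0.0495% in knockout and 0.0451% to 0.0508% in wild type, and in olfactory bulb, with 0.0493% to 0.0619% in knockout and 0.0489% to 0.0551% in wild type, and these regions overlapped in both genotypes. Levels are in CPM, read counts scaled to a common library size, with TMM-scaled library sizes (TMM is a scaling that sets the bulk of miRNAs equal between libraries), given as mean ± SD over the libraries of a group. In bulk tissue, fewer cells of a type and less RNA per cell cannot be told apart.

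The member with the widest range over the brain was miR-344d-3p, which was abundant in hippocampus and cortex and low in cerebellum in both genotypes. In knockout hippocampus its level was 977.5 and 1152 CPM, and in wild type hippocampus 919.8, 923.2 and 749.8 CPM. In knockout cortex it was 648.8, 638.8 and 795.5 CPM, and in wild type cortex 586.3, 684.8 and 649.6 CPM. The olfactory bulb was well under both, with 195, 106.7 and 142.6 CPM in knockout and 140.9, 120.8 and 140.9 CPM in wild type. The cerebellum was lowest, with 31.9, 38.2 and 34.5 CPM in knockout and 59.0, 36.6 and 37.7 CPM in wild type. No 2 regions overlapped within a genotype. The ratio of the mean level in hippocampus to that in cerebellum was 30.5 in knockout and 19.5 in wild type mice, and on library size alone it was 44.7 in knockout and 30.7 in wild type.

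A nearly opposite order held for miR-344-3p, over a narrower range. It was highest in olfactory bulb, at 562.3, 581.2 and 660.4 CPM in knockout and 602.6, 526.9 and 529.4 CPM in wild type libraries. Cerebellum followed, with 454.8, 441.2 and 509.7 CPM in knockout and 420.5, 493.4 and 504.8 CPM in wild type. Cortex had 356.3, 366.5 and 299.7 CPM in knockout and 328.7, 349.9 and 303.5 CPM in wild type. Hippocampus was lowest, with 247.6 and 253.7 CPM in knockout and 223.1, 256.9 and 254.3 CPM in wild type. The regions did not overlap within a genotype, and the ratio of highest to lowest mean was 2.40 in knockout and 2.26 in wild type. This order depends on scaling: on library size alone, the wild type means were 436.8 CPM in cortex, 394.5 CPM in olfactory bulb, 390.6 CPM in cerebellum and 329.7 CPM in hippocampus.

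The third pattern was that of miR-344b-3p, which was high in hippocampus and cortex like miR-344d-3p but lowest in olfactory bulb. It had 121.3 and 125.6 CPM in knockout hippocampus and 94.6, 119.4 and 90.3 CPM in wild type hippocampus. Cortex had 116, 113.7 and 81.4 CPM in knockout and 109.5, 120.3 and 105.3 CPM in wild type. In wild type the hippocampus and cortex libraries overlapped, so their order there is not set. Cerebellum had 59.5, 42.8 and 49.8 CPM in knockout and 59.8, 53.4 and 49.1 CPM in wild type. Olfactory bulb had 28.3, 17.9 and 14.8 CPM in knockout and 17.8, 19.9 and 20.8 CPM in wild type, below every library of the other regions. The ratio of highest to lowest regional mean was 6.08 in knockout and 5.72 in wild type, and on library size alone it was 11.1 in knockout and 10.7 in wild type.

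The least abundant member, miR-344c-3p, was lowest in cerebellum. Cerebellum libraries had 5.39, 4.95 and 6.90 CPM in knockout and 3.10, 4.07 and 4.10 CPM in wild type. Hippocampus had 14.3 and 17.8 CPM in knockout and 13.5, 14.4 and 13.01 CPM in wild type. Cortex had 13.4, 15.8 and 10.4 CPM in knockout and 13.9, 14.8 and 12.4 CPM in wild type. The hippocampus and cortex libraries overlapped in both genotypes. Olfactory bulb had 8.85, 13.4 and 10.04 CPM in knockout and 10.6, 11.2 and 8.97 CPM in wild type, and overlapped with cortex in knockout but not in wild type. The place of olfactory bulb depends on scaling: on library size alone its mean was 7.74 CPM in knockout and 7.32 CPM in wild type, against 20.3 CPM in knockout and 18.3 CPM in wild type hippocampus.

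**Figure D1:**
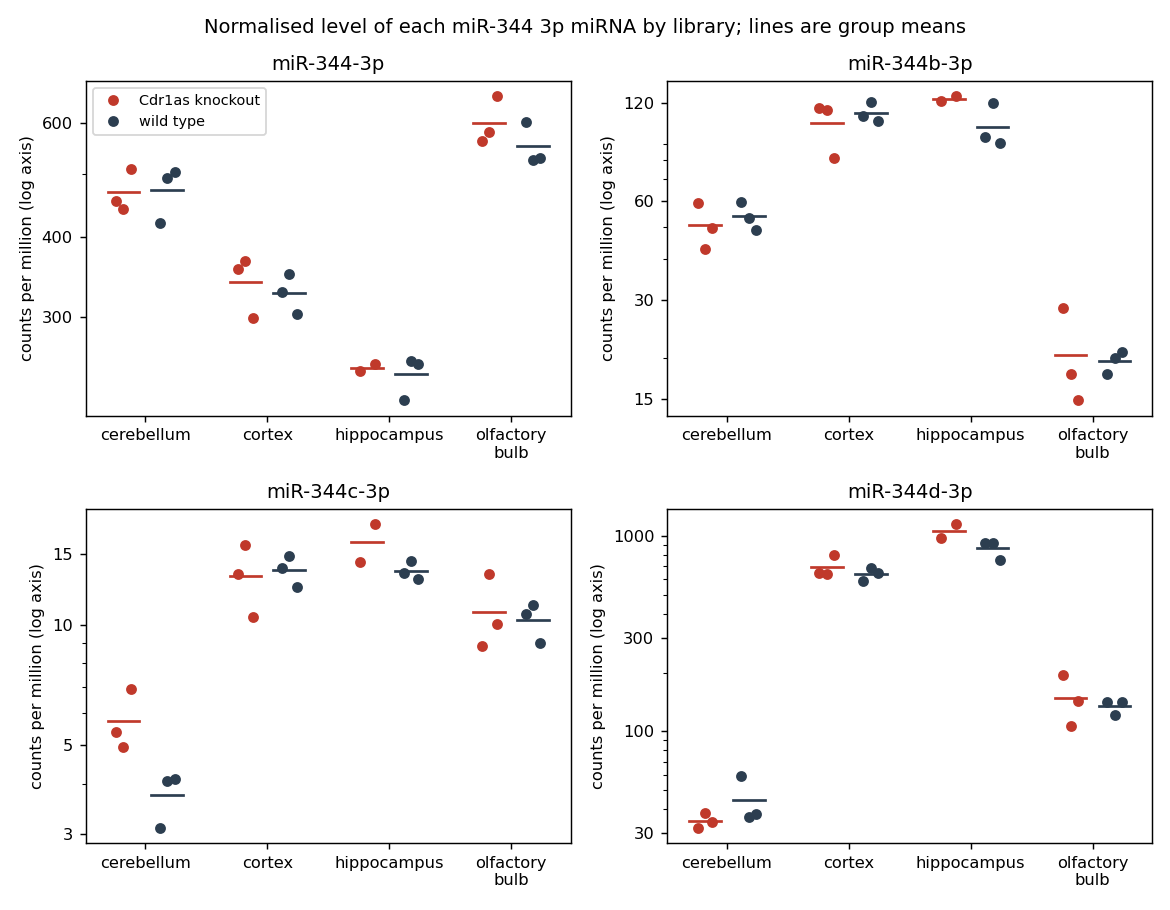
Each point is 1 library, with its TMM-scaled CPM on a log axis. Lines are group means, knockout is left of wild type in each region, and each panel has its own axis. Hippocampus and cortex are high and cerebellum low for miR-344d-3p, olfactory bulb is high for miR-344-3p and low for miR-344b-3p, and cerebellum is low for miR-344c-3p.

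The knockout libraries, which played no part in the wild type region levels, were used to test where each member was high or low. Members and comparisons were chosen with earlier results of these data known, among them values of knockout against wild type. These tests are therefore not independent of the choice of the family. Each knockout region was compared with the mean of the other 3 knockout regions on the log2 scale, by edgeR's quasi-likelihood test over 651 miRNAs. A miRNA was called where the Benjamini-Hochberg adjusted p was under 0.05 and the difference was at least 2-fold. All 4 members were above the count filter in 11 of 11 knockout libraries. Region differences were frequent among all miRNAs, so the members' counts are set beside the share called over all of them.

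In knockout hippocampus, 2 of 4 members were called, both higher, where 7.37% of all miRNAs were called higher, 7.07% lower and 14.4% in either direction. The level of miR-344d-3p was 2.79 ± 0.16 (SE) higher on the log2 scale (edgeR adjusted p = 2.84e-07), and that of miR-344b-3p was 1.36 ± 0.19 higher (adjusted p = 0.000158). The difference of miR-344c-3p was 0.75 ± 0.20 (edgeR adjusted p = 0.0102) and that of miR-344-3p was -0.88 ± 0.14 (adjusted p = 0.000436), and both were under 2-fold. The difference of miR-344c-3p is 1.20 on library size alone, which passes 2-fold. In knockout cortex, 2 of 4 members were again called, both higher, where 7.99% of all miRNAs were called higher, 6.91% lower and 14.9% in either direction. The difference was 1.98 ± 0.16 for miR-344d-3p (edgeR adjusted p = 1.43e-06). It was 1.04 ± 0.18 for miR-344b-3p (edgeR adjusted p = 0.000519), which is barely over 2-fold. It fell under 2-fold without cortex knockout replicate 1 (0.96) or 2 (0.89), and without olfactory bulb knockout replicate 2 (0.99) or 3 (0.99). The cortex difference of miR-344c-3p was 0.42 ± 0.19 (edgeR adjusted p = 0.0926), and that of miR-344-3p was -0.28 ± 0.12 (adjusted p = 0.0763), which becomes 0.25 on library size alone.

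In knockout cerebellum, 2 of 4 members were called, both lower, where 17.2% of all miRNAs were called lower, 16.1% higher and 33.3% in either direction. The log2 difference of miR-344d-3p was -3.77 ± 0.21 (edgeR adjusted p = 1.25e-08), and the difference of miR-344c-3p was -1.19 ± 0.21 (adjusted p = 0.000277). The difference was -0.34 ± 0.19 for miR-344b-3p (edgeR adjusted p = 0.138) and 0.34 ± 0.11 for miR-344-3p (adjusted p = 0.0202, under 2-fold). Markers of other cells also stood apart in cerebellum: 4 red blood cell miRNAs summed to 34000 to 38431 CPM in knockout cerebellum against 3713 to 10477 CPM in the other knockout regions, with 1 of 4 called higher. The 10 choroid plexus and ciliated epithelium miRNAs summed to 10376 to 14267 CPM there against 1971 to 4904 CPM in the other knockout regions, with 9 of 10 called higher. Their part in the cerebellum differences was not tested. In knockout olfactory bulb, 1 of 4 members was called, miR-344b-3p, with a difference of -2.06 ± 0.21 (edgeR adjusted p = 5.14e-06). There 8.29% of all miRNAs were called lower, 11.5% higher and 19.8% in either direction. The olfactory bulb difference of miR-344d-3p was -0.995 ± 0.18 (edgeR adjusted p = 0.000636), just under 2-fold. It passed 2-fold without cerebellum knockout replicate 1 (-1.02), cortex knockout replicate 1 (-1.005), hippocampus knockout replicate 2 (-1.03) or olfactory bulb knockout replicate 1 (-1.23). The difference of miR-344-3p was 0.82 ± 0.11 (edgeR adjusted p = 6.51e-05), under 2-fold, and that of miR-344c-3p was 0.02 ± 0.20 (adjusted p = 0.941), which is -0.17 with upper quartile scaling and -0.64 on library size alone. On library size alone, the difference of miR-344-3p was 0.03 in cerebellum, 0.15 in olfactory bulb and -0.43 in hippocampus. That scaling moved the median of all miRNAs to 0.44 in hippocampus, 0.50 in cortex, -0.29 in cerebellum and -0.70 in olfactory bulb, and upper quartile scaling moved it to 0.16 in cerebellum and -0.22 in olfactory bulb.

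**Figure D2:**
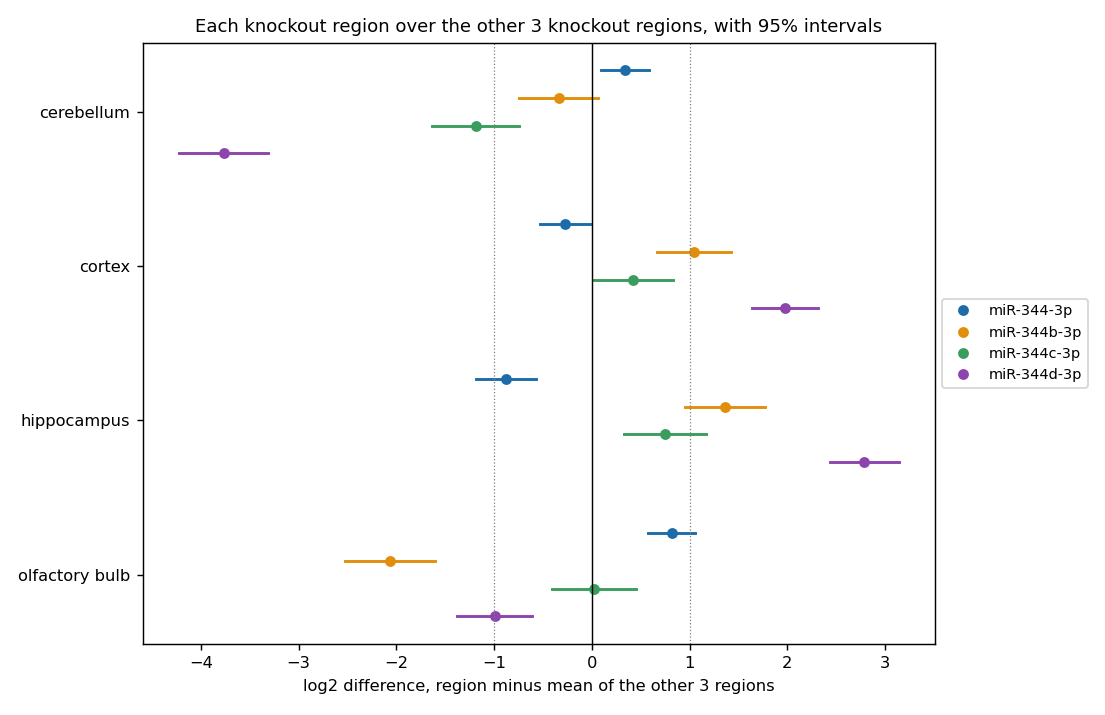
Points are log2 differences of a knockout region from the mean of the other 3 knockout regions, lines are 95% intervals from the edgeR fit, and dotted lines mark 2-fold. The differences of miR-344d-3p run from 2.79 in hippocampus to -3.77 in cerebellum, while the points of miR-344-3p stay within 2-fold in all 4 regions. Its intervals pass 2-fold in hippocampus, down to -1.19, and in olfactory bulb, up to 1.06.

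The member that made up most of the family's reads differed between regions. In knockout cerebellum miR-344-3p held 83.7% of the 4 members' counts, and in wild type cerebellum 82.1%, while miR-344d-3p held 6.26% in knockout and 7.81% in wild type. Olfactory bulb was alike, with miR-344-3p at 77.1% in knockout and 77.1% in wild type. In hippocampus the shares were turned round, with miR-344d-3p at 73.1% in knockout and 70.5% in wild type, and miR-344-3p at 17.3% in knockout and 20.1% in wild type. In cortex miR-344d-3p held 60.2% in knockout and 58.6% in wild type. Divided by hairpins, miR-344d-3p held 57.2% in knockout and 54.8% in wild type hippocampus, and 44.7% in knockout and 42.5% in wild type cortex. It remained the largest of the 4 shares in those regions on that basis, as miR-344-3p did in cerebellum at 77.5% in knockout and 76.4% in wild type. These shares do not depend on library scaling.

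**Figure D3:**
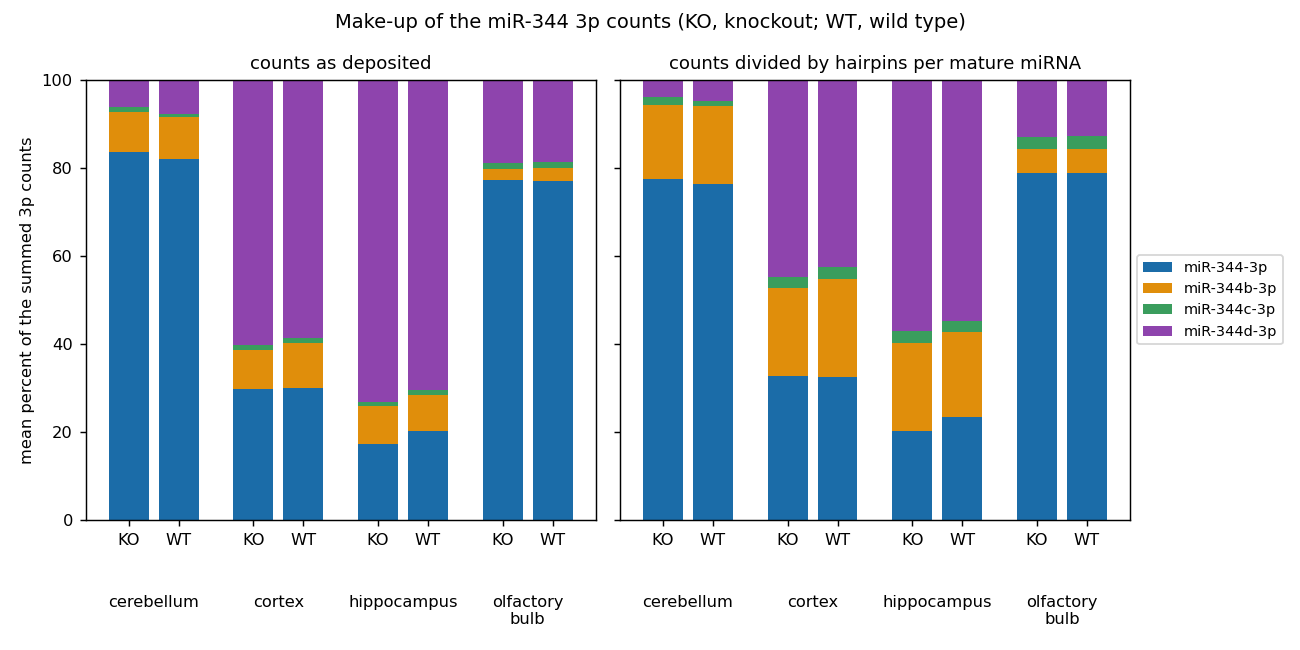
Bars give the mean percent of the 4 members' summed counts, by region, with knockout left of wild type, from counts as deposited (left panel) and from counts divided by the number of hairpins (right panel). In hippocampus miR-344d-3p holds 73.1% in knockout and 70.5% in wild type as deposited, and 57.2% in knockout and 54.8% in wild type per hairpin.

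The pair that shares the seed GAUCUAG was unequal everywhere. As deposited, for each 100 counts of miR-344-3p, hippocampus had 6.40 ± 0.89 counts of miR-344c-3p in knockout (SD, n = 2) and 5.59 ± 0.46 in wild type (SD, n = 3). Cortex had 3.85 ± 0.43 in knockout and 4.18 ± 0.081 in wild type, and olfactory bulb had 1.80 ± 0.44 in knockout and 1.86 ± 0.23 in wild type (SD, n = 3 each). Cerebellum had 1.22 ± 0.12 in knockout and 0.791 ± 0.048 in wild type (SD, n = 3 each). There the lowest knockout library, at 1.12, was above the highest wild type library, at 0.824. This ratio was not tested, and it rests on the same miR-344c-3p counts as the cerebellum comparison given further on. No share over all miRNAs was computed for ratios. Of single miRNA levels in cerebellum, 4.48% had all knockout libraries above the wild type libraries, miR-344c-3p among them. Divided by hairpins, the means were higher in every region, at 12.8 in knockout and 11.2 in wild type hippocampus and 2.44 in knockout and 1.58 in wild type cerebellum. The pair differs at only 2 bases, and whether reads were exchanged between them was not tested.

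**Figure D4:**
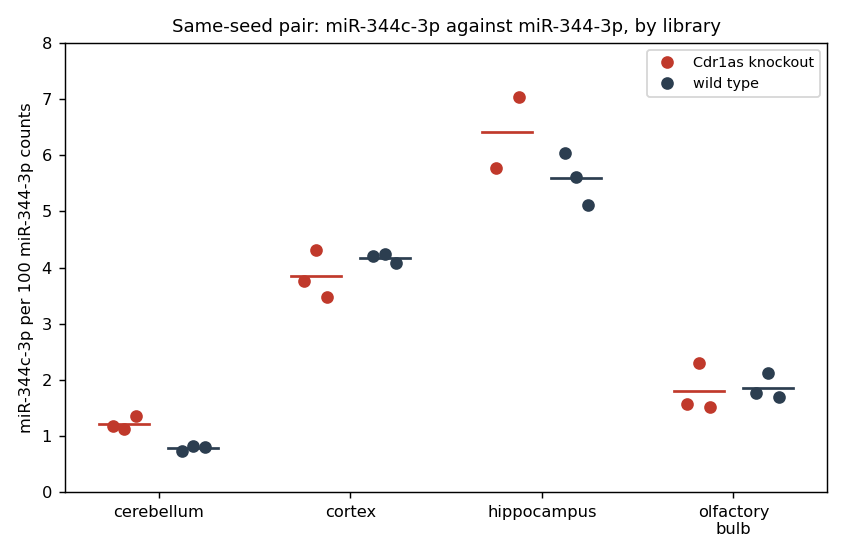
Each point is 1 library, the vertical axis gives deposited counts of miR-344c-3p for each 100 of miR-344-3p, lines are group means, and knockout is left of wild type. The mean is highest in hippocampus, at 6.40 in knockout and 5.59 in wild type, and lowest in cerebellum, at 1.22 in knockout and 0.791 in wild type (per hairpin 12.8 in knockout and 11.2 in wild type hippocampus, and 2.44 in knockout and 1.58 in wild type cerebellum).

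Beside the other carrier of its seed, miR-344d-3p was the lesser one in every region. The level of miR-410-3p averaged 4967 CPM in knockout and 5405 CPM in wild type hippocampus. For each 100 counts of miR-410-3p, hippocampus had 21.7 ± 5.12 counts of miR-344d-3p in knockout (SD, n = 2) and 16.0 ± 1.64 in wild type (SD, n = 3), as deposited. The knockout libraries there, from 18.1 up, lay above the wild type libraries, which reached 17.5. This ratio was not tested, and no share over all miRNAs was computed for ratios. Of single miRNA levels in hippocampus, 8.07% had both knockout libraries above the wild type libraries, miR-344d-3p among them. Cortex had 9.81 ± 0.34 in knockout and 9.11 ± 1.37 in wild type, and olfactory bulb had 4.40 ± 0.75 in knockout and 4.24 ± 0.20 in wild type (SD, n = 3 each). Cerebellum had 0.867 ± 0.10 in knockout and 1.14 ± 0.27 in wild type (SD, n = 3 each). Divided by hairpins, the means were 7.25 in knockout and 5.33 in wild type hippocampus, 3.27 in knockout and 3.04 in wild type cortex, 1.47 in knockout and 1.41 in wild type olfactory bulb, and 0.289 in knockout and 0.380 in wild type cerebellum. The third carrier, miR-344e-3p, had 40 counts over all 23 libraries.

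Loss of Cdr1as was compared with wild type in each region, to ask whether the members' levels change when the circular RNA is missing. No member was called in any region by edgeR's quasi-likelihood test at an adjusted p under 0.05 over 669 miRNAs, and the smallest adjusted p among the 16 member and region pairs was 0.800. DESeq2 called no member in any region either. Over all miRNAs edgeR called 2.09% in cortex, 0.149% in cerebellum, 0.149% in olfactory bulb and 0% in hippocampus, where 39 miRNAs had an unadjusted p under 0.05 and DESeq2 called 3. The members' log2 fold changes lay between -0.35 and 0.62, 15 of 16 of their 95% intervals lay within 2-fold in both directions, and 1 of 16 unadjusted p-values was under 0.05.

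That pair was miR-344c-3p in cerebellum, which averaged 5.75 ± 1.02 CPM in knockout and 3.76 ± 0.57 CPM in wild type (SD, n = 3 each). All 3 knockout libraries were above all 3 wild type libraries, as was so for 4.48% of all miRNAs in cerebellum. The log2 fold change was 0.62 ± 0.21 (SE), with a 95% interval of 0.19 to 1.05, an unadjusted edgeR p of 0.00718 and an adjusted p of 0.800. This value was already among the known results when the members were chosen. The log2 fold changes of the other members in cerebellum were -0.01 ± 0.11 for miR-344-3p, -0.09 ± 0.18 for miR-344b-3p and -0.35 ± 0.20 for miR-344d-3p. The first of these is 0.01 with upper quartile scaling and 0.05 on library size alone.

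In hippocampus, both knockout libraries were above all 3 wild type libraries for miR-344b-3p and miR-344d-3p, with log2 fold changes of 0.28 ± 0.20 and 0.30 ± 0.21. Of all miRNAs in hippocampus, 8.07% had both knockout libraries above the wild type libraries. The groups did not overlap in either direction for 16.9% of all miRNAs in hippocampus, 7.62% in cortex, 7.03% in cerebellum and 6.43% in olfactory bulb, and for 3 of 16 member and region pairs. The hippocampus libraries differed in a marker list: 10 miRNAs of choroid plexus and ciliated epithelium summed to 3294 to 3574 CPM in knockout and 3076 to 13203 CPM in wild type. The part of this tissue in the hippocampus values was not tested. The hippocampus log2 fold changes were 0.03 for miR-344-3p, which is -0.05 on library size alone, and 0.23 for miR-344c-3p.

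In cortex the log2 fold changes were 0.06 for miR-344-3p, -0.10 for miR-344b-3p, -0.03 for miR-344c-3p and 0.12 for miR-344d-3p. The values of miR-344b-3p and miR-344c-3p changed sign with upper quartile scaling, to 0.03 and 0.10, a scaling that moved the median of all miRNAs to 0.12, and that of miR-344c-3p was 0.002 by DESeq2. All 8 miRNAs of a list high in olfactory bulb (miR-200 family members and the miR-183 cluster) were called lower in knockout cortex, and summed to 141 to 445 CPM in knockout and 3676 to 6802 CPM in wild type cortex, against 218985 to 393952 CPM in knockout and 271186 to 300785 CPM in wild type olfactory bulb. The part of such tissue in the cortex values was not tested. In olfactory bulb the members' log2 fold changes were 0.12 for miR-344-3p, 0.09 for miR-344b-3p, 0.08 for miR-344c-3p and 0.14 for miR-344d-3p.

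Over the mean of the 4 regions no member was called, where 1.49% of all miRNAs were. The mean log2 fold change was 0.23 for miR-344c-3p, with a 95% interval of 0.03 to 0.43 (edgeR unadjusted p = 0.0272, adjusted p = 0.675). It was 0.05 for each of the others, with intervals of -0.07 to 0.17 for miR-344-3p, -0.16 to 0.25 for miR-344b-3p and -0.15 to 0.26 for miR-344d-3p. The test of whether the genotype difference varied between regions gave an edgeR adjusted p of 0.996 for all 4 members, where 1.64% of all miRNAs were called.

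**Figure D5:**
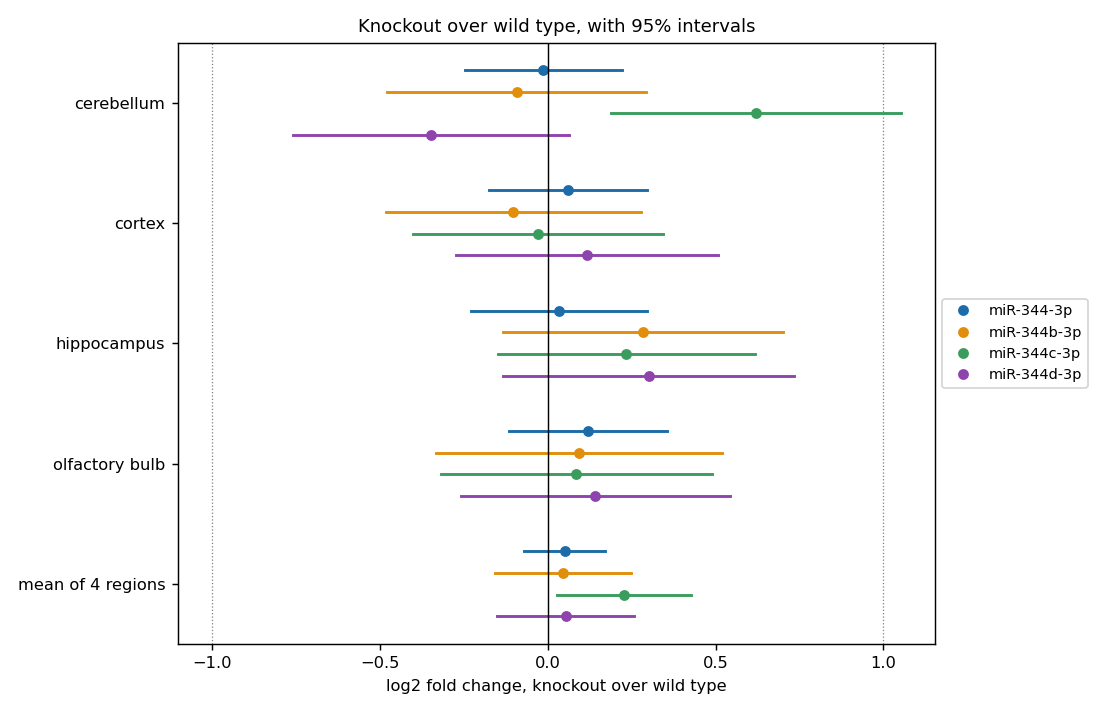
Each point is a member's log2 fold change, knockout over wild type, lines are their 95% edgeR intervals, and dotted lines mark 2-fold. All intervals cross 0 except those of miR-344c-3p in cerebellum (0.19 to 1.05) and over the mean of 4 regions (0.03 to 0.43), and neither passed adjustment.

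The reads of the members came almost wholly from the 3p arm. The 3p arm held 99.98% of the counts of both arms for miR-344-3p, 100% for miR-344b-3p, 99.85% for miR-344c-3p and 99.26% for miR-344d-3p. These shares are from counts as deposited and were not computed per hairpin. The 3p miRNA of miR-344d has 3 hairpins and each of its 5p miRNAs has 1, so its share would be lower on that basis. Among the 15 other miR-344 miRNAs, 2 had 0 counts in every library (miR-344b-5p and miR-344d-2-5p), which allows a level of up to 0.0172 CPM over all libraries. A further 2 had 1 to 9 counts in all, with 3 for miR-344c-5p and 9 for miR-344g-5p. The other 11 had at least 10. They were miR-344d-3-5p with 665 counts, miR-344f-3p with 630, miR-344f-5p with 147, miR-344g-3p with 55 and miR-344e-3p with 40, and then miR-344e-5p, miR-344h-5p and miR-344d-1-5p with 16 each, miR-344-5p with 14, miR-344h-3p with 12 and miR-344i with 10. The mature sequences of miR-344e-5p and miR-344h-5p are identical, so their reads cannot be told apart.

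The opposite arm of miR-344d-3p, as miR-344d-3-5p, averaged 7.70 CPM in knockout and 6.87 CPM in wild type hippocampus and 5.14 CPM in knockout and 4.60 CPM in wild type cortex. It averaged 1.13 CPM in knockout and 0.677 CPM in wild type olfactory bulb, and 0.205 CPM in knockout and 0.120 CPM in wild type cerebellum, where it had 4 counts over the knockout libraries and 3 over the wild type libraries. On TMM-scaled levels, both arms of miR-344f, whose hairpin lies near the other end of the run, had their highest mean in olfactory bulb instead. In wild type this order depends on scaling. On library size alone, both arms averaged higher in wild type cortex than in wild type olfactory bulb. The level of miR-344f-3p averaged 7.39 CPM in knockout and 6.81 CPM in wild type olfactory bulb, against 1.20 CPM in knockout and 1.33 CPM in wild type cerebellum. That of miR-344f-5p averaged 1.67 CPM in knockout and 1.47 CPM in wild type olfactory bulb, against 0.108 CPM in knockout and 0.221 CPM in wild type cerebellum. These 3 miRNAs did not reach the count filter in any knockout cerebellum library and passed it through the groups where they are high, so their region levels are given with no test. None of these 3 miRNAs was called in knockout against wild type.

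The ratio of 3p to 5p counts could be tested for miR-344d and miR-344f, whose 5p arms averaged at least 5 counts a library. Counts were taken as deposited, not divided by hairpins. In hippocampus the log2 ratio of miR-344d, with the 5p arms of its hairpins summed and 0.5 added to each arm, was 7.09 ± 0.056 in knockout (SD, n = 2) and 6.94 ± 0.21 in wild type (SD, n = 3). In cortex it was 7.08 ± 0.33 in knockout and 7.10 ± 0.30 in wild type (SD, n = 3 each). In olfactory bulb it was 6.94 ± 1.09 in knockout and 7.47 ± 0.51 in wild type, and in cerebellum 7.43 ± 1.61 in knockout and 8.15 ± 1.11 in wild type (SD, n = 3 each). These last rest on few 5p counts, 18 in knockout and 12 in wild type olfactory bulb, and 4 in knockout and 3 in wild type cerebellum. Knockout minus wild type was -0.72 in cerebellum, -0.53 in olfactory bulb, -0.02 in cortex and 0.15 in hippocampus for miR-344d. The larger negative values are thus those of the regions with few 5p counts. The mean over the 4 regions, which weights them equally, was -0.28. An exact permutation test (two-sided, genotypes swapped inside each region) gave p = 0.408 for it, and an adjusted p of 0.806 over 2 ratios. The mean difference of miR-344f was 0.10 (exact permutation p = 0.806, adjusted p = 0.806).

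Across the 23 libraries the members did not share one pattern. Pearson's r of log2 CPM was 0.85 between miR-344c-3p and miR-344d-3p, 0.61 between miR-344b-3p and miR-344d-3p and 0.31 between miR-344b-3p and miR-344c-3p. With miR-344-3p it was -0.87 for miR-344b-3p, -0.78 for miR-344d-3p and -0.49 for miR-344c-3p. The libraries share regions and scaling, so these values mostly set 4 regions side by side and are given with no p. They depend on the TMM scaling, above all for miR-344-3p. On library size alone its highest mean was in cortex, and the ratio of highest to lowest mean was only 1.42 in knockout and 1.32 in wild type. No r was computed on that scaling, here or for miRNAs outside the family.

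The miRNAs outside the family with the highest r were taken by a fixed rule, 5 for each member. For miR-344d-3p they were miR-409-3p of the Dlk1-Dio3 region at 0.99, miR-222-3p at 0.98, miR-137-3p at 0.98, miR-221-3p at 0.96 and miR-221-5p at 0.96. The levels of miR-409-3p averaged 861 CPM in knockout and 806 CPM in wild type hippocampus, and 201 CPM in knockout and 216 CPM in wild type cerebellum, a narrower range than that of miR-344d-3p. For miR-344b-3p they were miR-329-5p at 0.96, miR-411-3p, miR-1843a-5p and miR-218-5p at 0.94, and miR-1843b-5p at 0.93. For miR-344c-3p they were miR-221-3p at 0.93, miR-7080-3p, miR-6944-3p and miR-222-5p at 0.92, and miR-370-3p at 0.91. For miR-344-3p they were miR-135b-5p and miR-181a-5p at 0.95, and miR-15a-5p, miR-15b-5p and miR-124-5p at 0.91. Of these, miR-135b-5p averaged 60.8 CPM in knockout and 64.6 CPM in wild type olfactory bulb, and 8.26 CPM in knockout and 8.91 CPM in wild type hippocampus.

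Imprinted miRNAs of other loci were set beside the family, with 20 of a list of 23 tested. Most of the list comes from a single locus, the Dlk1-Dio3 region, so its counts and medians describe that region more than the other loci. None was called in knockout against wild type in any region. In the knockout regions, the list had 2 called higher and 0 lower in hippocampus, 1 higher and 1 lower in cortex, 1 higher and 4 lower in cerebellum, and 0 higher and 1 lower in olfactory bulb. Of all miRNAs, 7.37% were called higher and 7.07% lower in hippocampus, 7.99% higher and 6.91% lower in cortex, 16.1% higher and 17.2% lower in cerebellum, and 11.5% higher and 8.29% lower in olfactory bulb. Its median log2 difference was 0.28 in hippocampus against -0.02 for all miRNAs, 0.53 against -0.02 in cortex, -0.36 against 0.01 in cerebellum and -0.33 against -0.02 in olfactory bulb. The called ones of hippocampus were miR-127-3p, made from the antisense transcript of Rtl1, with a difference of 1.67, and miR-409-3p with 1.17. In cortex miR-335-3p, hosted by the imprinted gene Mest, had 1.81 and miR-127-3p had -1.23. In cerebellum miR-127-3p had 1.48, miR-298-5p -1.74, miR-409-3p -1.61, miR-335-3p -1.60 and miR-296-3p -1.22. In olfactory bulb miR-127-3p had -1.92. The count filter was checked region by region for miR-344 miRNAs only. Whether any of these imprinted miRNAs passed it only through regions where they are high was not checked.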

How the data were processed

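Per the labels, RNA was TRIZOL-extracted total RNA and the kit was TruSeq Small RNA. The authors deposited 1 table of raw counts per library, mapped to mm9 per the submitters' processing notes. Neither these notes nor the labels state the aligner, the counter or the handling of multiply mapped reads. Members, lists and comparisons were chosen with earlier results of these data known. Counts were analysed with edgeR 4.0.16 in R 4.3.3. Filtering (filterByExpr, minimum count 10, minimum total 15) kept 669 of 1459 detected miRNAs over all libraries and 651 over knockout libraries. The models had 1 mean per group, and quasi-likelihood F tests were adjusted by Benjamini-Hochberg. Named miRNAs were the members, other miR-344 miRNAs with 10 counts or more, the 5 most correlated with each member, and called members of the imprinted list, up to 4 per comparison by p. In cerebellum miR-296-3p was named beyond these, after its value was seen. PCR reads are not independent molecules, so counting limits cover counting error only. Alternatives were DESeq2 1.42.0, other scalings, no filter, a replicate block and leaving out libraries. Scripts were tested on simulated data.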

Additional observations from a re-analysis of the deposited data

How the results depend on the processing

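No member was called in knockout against wild type under any alternative (other scalings, no filter, DESeq2, a replicate block, fits of 1 region, and each library left out), and miR-344c-3p in cerebellum kept a log2 fold change of 0.46 to 0.71. Same-numbered libraries correlated above 0.1 in 4 of 11 pairs of knockout and wild type. They did so in 3 of 15 pairs of knockout regions and 9 of 18 pairs of wild type regions. Pairs with different numbers were not compared, so these values cannot tell whether the numbers mark shared animals. The main tests did not pair libraries by number. Shared animals between some regions are possible, and libraries of different regions would then not be independent. With the replicate block the count of called members moved in knockout olfactory bulb alone. In knockout cerebellum 2 members were called under every alternative. In knockout hippocampus 2 were, with 3 on library size only. In knockout cortex 1 was called with upper quartile scaling, where miR-344b-3p was at 0.99, and 1 to 2 with a library left out. In knockout olfactory bulb 2 were called with upper quartile scaling, library size only, no filter, the replicate block or counts divided by hairpins (chosen after seeing the data), with miR-344d-3p at -1.21, -1.70, -1.04, -1.02 and -1.002, and 1 to 2 with a library left out.

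Signs that changed belonged to differences never called in the main test. With upper quartile scaling, knockout over wild type was 0.0065 for miR-344-3p in cerebellum, and 0.035 for miR-344b-3p and 0.10 for miR-344c-3p in cortex, and DESeq2 gave 0.0018 for the last. On library size only, miR-344-3p was at 0.047 in cerebellum and -0.054 in hippocampus, and at 0.25 in knockout cortex against the other knockout regions. In knockout olfactory bulb miR-344c-3p was at -0.17 with upper quartile scaling and -0.64 on library size only (edgeR adjusted p = 0.0231). The cause was not tested. With single libraries left out, knockout over wild type ran over 0 for miR-344-3p in cerebellum (-0.091 to 0.036) and hippocampus (-0.028 to 0.075), and for miR-344b-3p in cerebellum (-0.22 to 0.011), cortex (-0.19 to 0.043) and olfactory bulb (-0.22 to 0.24). It also did for miR-344c-3p in cortex (-0.19 to 0.097) and olfactory bulb (-0.16 to 0.23), for miR-344d-3p in olfactory bulb (-0.11 to 0.33), and over the 4 regions for miR-344b-3p (-0.034 to 0.084) and miR-344d-3p (-0.011 to 0.12). The knockout olfactory bulb difference of miR-344c-3p ran between -0.20 and 0.19, and the arm ratio of miR-344f between -0.081 and 0.34.

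Wild type levels on library size only were, for cerebellum, cortex, hippocampus and olfactory bulb in turn, 390.6, 436.8, 329.7 and 394.5 CPM for miR-344-3p, 45.3, 149, 136 and 13.9 CPM for miR-344b-3p, and 3.09, 18.3, 18.3 and 7.32 CPM for miR-344c-3p. For miR-344d-3p they were 854 CPM in cortex, 1159 CPM in hippocampus and 95.6 CPM in olfactory bulb. Depth limits the cerebellum values of miR-344d-3-5p, with 4 counts in knockout and 3 in wild type.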
